A study of Mus musculus with 12 samples.

Results

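The class I peptide loading complex was followed here through 9 genes of its transport, trimming, loading and control machinery: Tap1, Tap2, Tapbp, Tapbpl, Erap1, Nlrc5, Calr, Canx and Pdia3. Each was taken by its symbol from the deposited table of 54532 genes, and all 9 were among the 16164 genes with enough counts to be tested. RNA had been sequenced from tumours of B16F10, a pigmented mouse melanoma line, implanted as wild-type cells into leg skin, on both sides, of male hosts 8 to 12 weeks old and taken on day 14. The 6 iKO libraries came from hosts of the genotype Trex1 fl/fl-R26CreERT2-ki/wt and the 6 Ctrl libraries from Trex1 wt/fl-R26CreERT2-ki/wt hosts. All hosts carried the tamoxifen-activated Cre, driven from the Rosa26 locus and so not limited to 1 cell type, and were dosed on 3 days, starting at day 5, with 1 mg of tamoxifen each time. Ctrl hosts therefore also carried 1 floxed copy of Trex1, the gene of a cytosolic DNA-degrading enzyme, while the implanted cells kept theirs. Per the labels the tumours were sorted to remove CD45+ leukocytes and CD31+ endothelium, although the protocol text says negative for either marker. The labels also name a single-cell library source and the series text speaks of immune cells from the tumour, while the table holds 1 bulk column per library. Libraries are not tied to mice, so p-values measure the spread between libraries, which may be partly technical.

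Cells show fragments of their own proteins on MHC class I molecules to CD8 T cells. Peptides made by the proteasome are carried into the endoplasmic reticulum by the TAP1-TAP2 transporter, trimmed there by the aminopeptidase ERAP1, and placed on class I heavy chains by a complex in which tapasin (Tapbp) bridges the transporter and the empty class I molecule, together with calreticulin (Calr) and the disulfide isomerase ERp57 (Pdia3). Calnexin (Canx) folds the heavy chain before it reaches that complex, TAPBPR (Tapbpl) edits peptides outside it, and NLRC5 is a transactivator of class I genes that acts in the nucleus. Interferons are known to raise many of these genes, and class I display is a main route by which melanoma cells are seen or missed by cytotoxic T cells.

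The data divided the 9 genes into a group of 6 that rose in iKO tumours, by 2.75-fold to 5.22-fold, and the 3 general chaperones, which fell slightly. The stretches before the gene starts are shown for Calr and Canx, which share a motif, and for Tap1, whose stretch is shared with a neighbour that rose with it. RefSeq (build GRCm38.p6) gave a promoter for 6 of the 9 genes, and the 250 bases before the start were searched on both strands for 3 motifs. The endoplasmic reticulum stress element, a site that drives chaperone genes, was spelled CCAAT, then 9 bases of any kind, then CCACG, and stood in 37 of 32851 promoter windows (0.113%). It was found once before Calr, on the opposite strand, and once before Canx. Pdia3 had no match in this exact spelling. The log2 fold changes were -0.27 for Calr, -0.34 for Canx and -0.27 for Pdia3, and any part of the motif in them was not tested. The motif is in capitals here.
Calr, chr8:84846932-84847181, minus strand: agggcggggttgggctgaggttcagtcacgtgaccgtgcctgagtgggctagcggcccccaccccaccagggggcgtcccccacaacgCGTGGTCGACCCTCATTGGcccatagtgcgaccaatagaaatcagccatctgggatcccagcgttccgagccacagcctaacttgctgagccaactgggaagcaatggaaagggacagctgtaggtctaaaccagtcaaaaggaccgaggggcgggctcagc
Canx, chr11:50325674-50325923, minus strand: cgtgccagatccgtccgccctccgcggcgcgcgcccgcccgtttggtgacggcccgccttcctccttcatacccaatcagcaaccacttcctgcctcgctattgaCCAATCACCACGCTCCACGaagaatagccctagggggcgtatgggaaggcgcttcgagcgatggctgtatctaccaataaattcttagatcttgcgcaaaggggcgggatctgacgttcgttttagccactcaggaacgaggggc
Tap1, chr17:34187306-34187555, plus strand: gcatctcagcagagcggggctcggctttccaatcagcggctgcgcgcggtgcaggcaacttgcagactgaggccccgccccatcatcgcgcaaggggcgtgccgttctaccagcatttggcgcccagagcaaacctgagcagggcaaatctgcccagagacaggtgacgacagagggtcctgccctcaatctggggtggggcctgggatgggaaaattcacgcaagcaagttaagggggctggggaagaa
The Tap1 start lay 226 bases from that of Psmb9, an immunoproteasome subunit gene on the other strand, and 225 of the 250 bases belong to the windows of both genes. The interferon-stimulated response element, spelled as 2 copies of GAAA with 2 bases of any kind between them, was in 2.98% of all windows and the STAT site, spelled TTCNNNGAA, in 7.02%. Neither was found, in this spelling, in the windows of Tap1, Tapbp, Erap1, Calr, Canx or Pdia3. A match in these letters is a description and not evidence of binding.

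Libraries held 29.8 to 35.5 M counts in iKO and 34.3 to 45.8 M in Ctrl, and the 9 genes had between 649 and 55649 counts in each library. Trex1 had 0 counts in all 12 libraries, and since all of its exon bases lie within those of Atrip, it gave no check of the genotypes. Pigment cell markers were abundant in both groups, at summed levels of 14706 to 20840 TMM-scaled CPM (counts set relative to library size) in iKO and 21018 to 21414 CPM in Ctrl. Summed fibroblast markers reached 14639 CPM in iKO 2, where the pigment cell sum was 15114 CPM, and 10111 CPM in iKO 5. They were at 597 CPM in iKO 6 and at 2262 to 2583 CPM in Ctrl. Of the 8 melanocyte markers 6 fell, and the median log2 fold change of the list was -0.37. Markers of other cells rose: 9 of 10 of leukocytes, 7 of 7 of T cells, 6 of 7 of macrophages, 4 of 8 of endothelium (1 fell) and the 4 tested of 5 of keratinocytes, while 1 of 8 fibroblast markers rose. Of all tested genes 25% rose and 21.4% fell. Ptprc (CD45) was at 17.4 to 345 CPM in iKO and 0.158 to 15.5 CPM in Ctrl, a log2 fold change of 5.98, and of 8.35 without Ctrl 5. Pecam1 (CD31) was at 3.87 to 14.8 CPM in iKO and 3.06 to 5.07 CPM in Ctrl. The leukocyte score, the mean log2 CPM of that list, was 4.11 in iKO 1 and 6.54 to 7.32 in the other iKO libraries, against 4.40 in Ctrl 5 and 0.33 to 2.02 in the other Ctrl libraries. Xist was at 219 CPM in iKO 2 and 117 CPM in iKO 3, against 8.38 CPM or less in the other 10 libraries, although all mice were labelled male. Summed counts of 4 Y-linked genes were 44 in iKO 2, 0 in iKO 3, 239 in iKO 1 and 1298 to 1513 in iKO 4 to 6, against 107 to 254 in Ctrl. In such bulk libraries a change in RNA per cell and a change in the number of cells of a type cannot be told apart.

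The genes of the peptide transporter rose most among the structural parts of the machinery. Tap1 (ENSMUSG00000037321, mm10 chromosome 17, 34187553 to 34197225) ranged from 249.6 through a median of 371 to 464 CPM in iKO libraries, and from 71.9 through 75.0 to 81.7 CPM in Ctrl libraries. The groups lay far apart, with iKO 1 the lowest of its group and Ctrl 5 the highest of the other. Tap1 averaged 378 ± 76.4 CPM in iKO and 75.2 ± 3.57 CPM in Ctrl (SD, n = 6 each), an increase of 2.33 ± 0.12 on the log2 scale (SE; edgeR quasi-likelihood test, adjusted p = 1.66e-08). Tap2 (ENSMUSG00000024339, chromosome 17, 34203527 to 34216321), whose product pairs with that of Tap1, ranged from 70.8 through 100.4 to 114 CPM in iKO and from 18.3 through 22.2 to 26.4 CPM in Ctrl. It rose by 2.11 ± 0.12 (edgeR, adjusted p = 4.13e-08), again with iKO 1 lowest, Ctrl 5 highest and no overlap between the groups. Of its annotated exon bases 18.5% are shared with antisense transcripts, and the libraries did not keep strand, so reads of the 2 strands were not separable. The antisense genes were Gm20496, with 38 counts in iKO and 6 in Ctrl, and Gm15821, with 81 and 11. Tap2 had 18695 counts in iKO and 5364 in Ctrl. Tap1 shares 3.87% of its exon bases with Psmb9 on the other strand, which had a log2 fold change of 2.24.

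The loading factor tapasin and its relative rose too, but by less. Tapbp (ENSMUSG00000024308, chromosome 17, 33915899 to 33929288) ranged from 234.1 through 335.8 to 391.8 CPM in iKO and from 85.3 through 87.8 to 104.9 CPM in Ctrl. Every iKO library lay above every Ctrl library, and the mean was 323 ± 59.2 CPM in iKO and 90.9 ± 7.41 CPM in Ctrl (SD, n = 6 each), a log2 fold change of 1.83 ± 0.11 (SE; edgeR, adjusted p = 5.41e-08). In GENCODE M21, whose Tapbp model holds 3628 exon bases against a deposited length of 3296, 29.0% of the Tapbp exon bases overlap other genes. Those were Zbtb22, which made no call (0.11 on the log2 scale; edgeR, adjusted p = 0.155), and the antisense Gm19412, which had 0 counts. Tapbpl (ENSMUSG00000038213, chromosome 6, 125223933 to 125231860), whose exons overlap no other gene, ranged from 47.2 through 61.8 to 75.2 CPM in iKO and from 17.1 through 19.8 to 23.1 CPM in Ctrl. Its groups were as cleanly apart, and it rose by 1.62 ± 0.11 (edgeR, adjusted p = 1.40e-07).

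Calreticulin, calnexin and ERp57, which serve the folding of many glycoproteins besides class I, were slightly lower in iKO. Calr (ENSMUSG00000003814, chromosome 8, 84841850 to 84846934) ranged from 837 through 907 to 956 CPM in iKO and from 1028 through 1070.3 to 1151 CPM in Ctrl. Its groups did not overlap, and the mean of 897 ± 50.0 CPM in iKO and 1078 ± 44.1 CPM in Ctrl (SD, n = 6 each) gave a log2 fold change of -0.27 ± 0.05 (SE; edgeR, adjusted p = 0.00130). Pdia3 (ENSMUSG00000027248, chromosome 2, 121413775 to 121438687) ranged from 645 through 707 to 783 CPM in iKO and from 792 through 839 to 922 CPM in Ctrl. It fell by 0.27 on the log2 scale (SE 0.06; edgeR, adjusted p = 0.00258), with a narrow gap between iKO 1 and the lowest Ctrl library. Canx (ENSMUSG00000020368, chromosome 11, 50293961 to 50325673) ranged from 827 through 886 to 1116 CPM in iKO and from 1074 through 1184 to 1217 CPM in Ctrl. Here the groups overlapped, because iKO 1 lay above Ctrl 5, and the log2 fold change was -0.34 ± 0.08 (SE; edgeR, adjusted p = 0.00261).

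Erap1 (ENSMUSG00000021583, chromosome 13, 74639568 to 74693201), the peptide-trimming enzyme, ranged from 134 through 158 to 184 CPM in iKO and from 50.7 through 57.4 to 65.6 CPM in Ctrl. It rose by 1.46 ± 0.08 (edgeR, adjusted p = 2.69e-08), the smallest change among the 6 genes that rose, and its iKO libraries were the least spread of those 6 genes (coefficient of variation 10.5% in iKO and 10.1% in Ctrl). Of its exon bases 11.5% are shared with Cast on the other strand, which had a log2 fold change of 0.61. Nlrc5 (ENSMUSG00000074151, chromosome 8, 94434356 to 94527272), the transactivator, ranged from 153 through 241 to 295 CPM in iKO and from 37.6 through 45.0 to 53.2 CPM in Ctrl. It averaged 238 ± 50.2 CPM in iKO and 45.5 ± 5.27 CPM in Ctrl (SD, n = 6 each), a log2 fold change of 2.39 ± 0.14 (SE; edgeR, adjusted p = 9.01e-08). This was the largest change of the 9 genes, its groups did not overlap, and unlike Tap1 or Tapbp its lowest Ctrl library was Ctrl 5. Nlrc5 shares 0.92% of its exon bases with 9330175E14Rik on the other strand, which had a log2 fold change of 2.69.

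**Figure D1:**
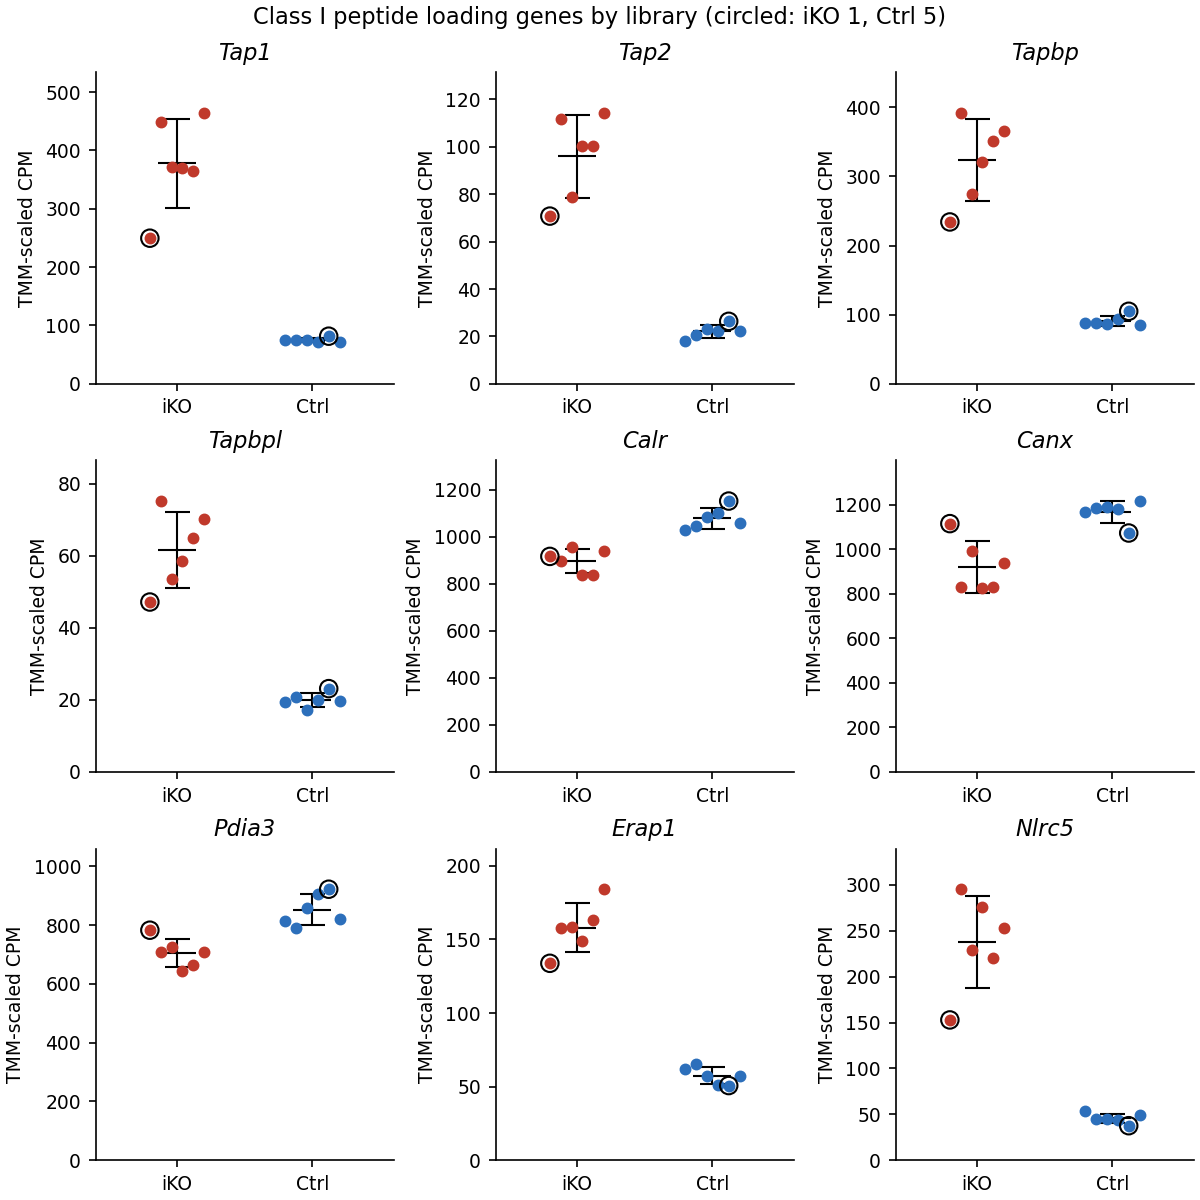
TMM-scaled CPM of the 9 genes in each of the 6 iKO (red) and 6 Ctrl (blue) libraries, each panel on its own axis from 0, with mean and SD as bars and iKO 1 and Ctrl 5 circled. Tap1, Tap2, Tapbp, Tapbpl, Erap1 and Nlrc5 are higher in every iKO library, Calr and Pdia3 are lower in every iKO library, and Canx overlaps between iKO 1 (1116 CPM) and Ctrl 5 (1074 CPM).

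Thus 6 of the 9 genes rose, where 25% of all tested genes did, and 3 fell, where 21.4% did. In CPM, groups that did not overlap, with iKO above, were seen in those 6 genes and in 11.8% of all tested genes. With iKO below they were seen in Calr and Pdia3 and in 11.1% of all tested genes. The median log2 fold change over the 9 genes was 1.62, against 0.023 over all tested genes. The rise of Nlrc5 was exceeded by 5.64% of the tested genes, that of Tap1 by 5.77% and that of Erap1 by 9.85%.

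Divided by gene length, the general chaperones were the most abundant of the 9 transcripts in both groups. In TPM, counts per gene length scaled to the same total in each library, Calr stood at 1035 ± 80.8 in iKO and 1217 ± 18.2 in Ctrl, Pdia3 at 748 ± 78.3 in iKO and 882 ± 16.1 in Ctrl, and Canx at 655 ± 106 in iKO and 813 ± 66.3 in Ctrl (SD, n = 6 each). Tapbp followed at 324 ± 50.6 TPM in iKO and 89.5 ± 3.71 TPM in Ctrl, and Tap1 at 228 ± 39.8 TPM in iKO and 44.7 ± 2.11 TPM in Ctrl (SD, n = 6 each). The other 4 genes lay lower. Nlrc5 was at 92.6 ± 18.5 TPM in iKO and 17.5 ± 2.69 TPM in Ctrl, so that it was the lowest of the 9 in Ctrl and the sixth in iKO. Tapbpl was at 86.6 ± 12.5 TPM in iKO and 27.7 ± 2.31 TPM in Ctrl, Tap2 at 83.9 ± 12.7 TPM in iKO and 19.0 ± 1.67 TPM in Ctrl, and Erap1 at 71.8 ± 4.73 TPM in iKO and 25.7 ± 3.71 TPM in Ctrl (SD, n = 6 each). The ranges of these 4 genes overlapped with each other in iKO but not with that of Tap1, and the ranges of Pdia3 and Canx and of Tapbp and Tap1 also overlapped there. In Ctrl, Pdia3 overlapped with Canx, and Tapbpl, Erap1, Tap2 and Nlrc5 each with the next, while Calr, Tapbp and Tap1 stood clear of their neighbours.

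**Figure D2:**
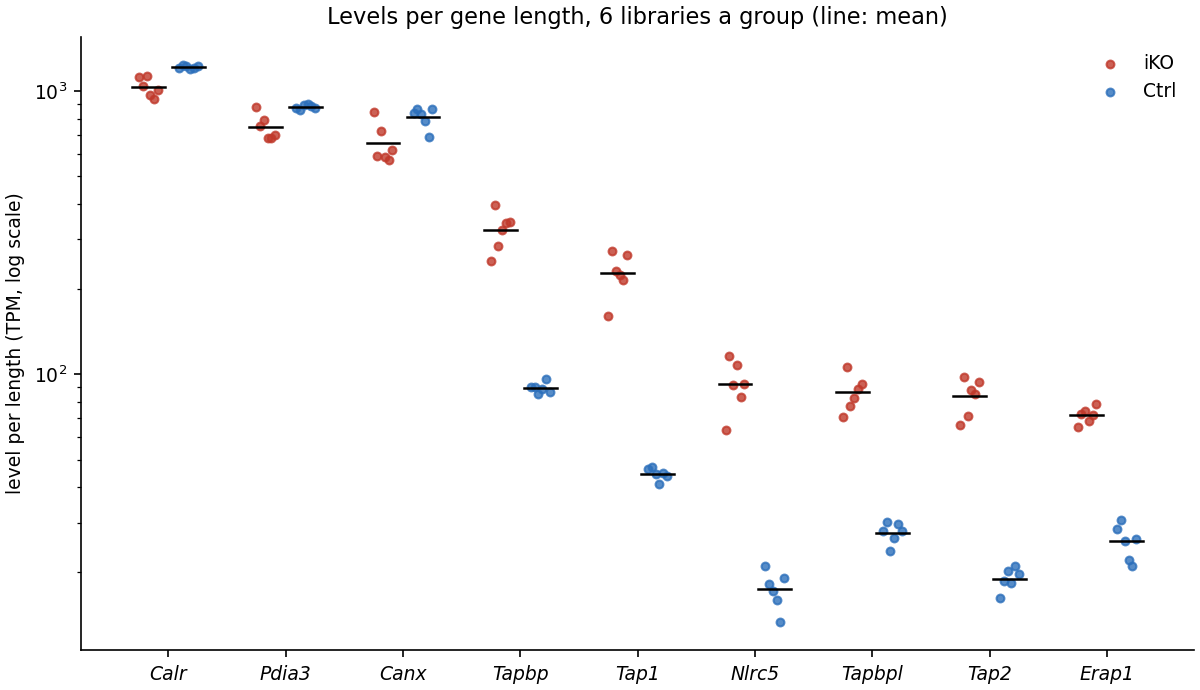
Level per gene length (TPM, log axis) of the 9 genes in each iKO (red) and Ctrl (blue) library, with the group mean as a line, ordered by the iKO mean. Calr, Pdia3 and Canx lead in both groups, and the distance to Tapbp and Tap1 is smaller in iKO, where Calr is at 1035 TPM and Tap1 at 228 TPM, than in Ctrl, where they are at 1217 and 44.7 TPM.

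The proportions between these transcripts in the bulk libraries were therefore different, while protein and levels within a cell type were not measured. The level per length of Calr was 3.29 ± 0.756 times that of Tapbp in iKO and 13.6 ± 0.650 times in Ctrl, and that of Pdia3 was 2.39 ± 0.635 times that of Tapbp in iKO and 9.86 ± 0.460 times in Ctrl (SD, n = 6 each). Calr was at 4.69 ± 1.19 times the level of Tap1 in iKO, highest at 6.98 in iKO 1, and at 27.3 ± 1.17 times in Ctrl. Ratios within the transporter, within the chaperones and between tapasin and its relative were closer in the 2 groups. Tap1 stood at 2.72 ± 0.300 times the level of Tap2 in iKO and 2.36 ± 0.272 times in Ctrl, Pdia3 at 0.722 ± 0.0334 times that of Calr in iKO and 0.725 ± 0.0213 times in Ctrl, and Tapbp at 3.73 ± 0.132 times that of Tapbpl in iKO and 3.25 ± 0.210 times in Ctrl.

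Whether genes differed in their change was tested on the log2 ratio of each of the 36 pairs within a library, which no scaling between libraries can move. The change differed in 29 pairs (exact two-sided permutation test over 924 assignments, Benjamini-Hochberg over the pairs, n = 6 each; the smallest p is 0.00216). All 18 pairs of a gene that rose with a chaperone were among them, with Tap1 exceeding Calr by 2.57 and Erap1 exceeding Calr by 1.73 on the log2 scale (exact permutation test, adjusted p = 0.00300 for each). The sides of those 18 pairs had opposite changes in these same libraries, so their tests add no separate support for the division. Among the 6 genes that rose, Tap1 exceeded Tapbp by 0.49, Tapbpl by 0.70 and Erap1 by 0.84, and Nlrc5 exceeded Tapbp by 0.55 (exact permutation test, adjusted p = 0.00300 for each). Tapbp exceeded its relative Tapbpl by 0.20 (exact permutation test, adjusted p = 0.00557) and Erap1 by 0.35 (exact permutation test, adjusted p = 0.0349). The last of these was lost, at adjusted p of 0.0618 to 0.0725 by the same test, without any 1 of Ctrl 1, 2, 3 or 6 or iKO 2, 4 or 5. Tap1 and Tap2 differed by 0.21 (exact permutation test, adjusted p = 0.0623, but 0.0134 without Ctrl 1 and 0.0390 without iKO 1), and Tap1 and Nlrc5 by -0.058 (exact permutation test, adjusted p = 0.646). Tap2 and Nlrc5 differed by -0.26 (exact permutation test, adjusted p = 0.123, but 0.0234 without Ctrl 1), and Tapbpl and Erap1 by 0.15 (exact permutation test, adjusted p = 0.265). The 3 chaperone pairs differed by -0.078 to 0.084 with no call (exact permutation test, adjusted p of 0.279 to 0.833). Without Ctrl 5 and iKO 1, Canx fell 0.18 further than Calr and 0.15 further than Pdia3 (exact permutation test, adjusted p = 0.00985 and 0.0369).

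Leukocyte marker levels also differed between the groups. Summed leukocyte marker levels were 434.5 to 2104 CPM in iKO and 297 to 491 CPM in Ctrl, those of T cells 7.36 to 119.7 CPM in iKO and 0 to 4.08 CPM in Ctrl, and those of macrophages 226 to 1817 CPM in iKO and 16.4 to 416 CPM in Ctrl. Much of the leukocyte sum in Ctrl came from Arhgdib, which made no call and averaged 244 CPM in iKO and 248 CPM in Ctrl. The median log2 fold change of the leukocyte list was 5.04. Cd3d, which defines T cells, was at 0 in 5 libraries. Summed fibroblast markers were at 597 to 14639 CPM in iKO and 2262 to 2583 CPM in Ctrl, those of endothelium at 24.4 to 78.4 CPM in iKO and 23.7 to 31.1 CPM in Ctrl, and those of keratinocytes at 4.57 to 164 CPM in iKO and 1.98 to 3.03 CPM in Ctrl. The part of these 3 lists in the changes was not tested. The libraries iKO 1 and Ctrl 5 had close leukocyte scores (4.11 and 4.40), and between this pair, with 1 library each and hence no test, iKO 1 was higher by 1.61 for Tap1, 1.42 for Tap2, 1.16 for Tapbp, 1.03 for Tapbpl, 1.40 for Erap1 and 2.02 for Nlrc5 (log2 CPM). Between the same libraries Calr differed by -0.33, Pdia3 by -0.24 and Canx by 0.056. Within iKO the other 5 libraries averaged above iKO 1 by 0.28 for Erap1 to 0.73 for Nlrc5 over the 6 genes that rose, and differed from it by -0.039 for Calr, -0.34 for Canx and -0.18 for Pdia3. Within Ctrl, Ctrl 5 was above the mean of the others by 0.14 to 0.31 for Tap1, Tap2, Tapbp and Tapbpl, and differed from it by -0.21 for Erap1, -0.32 for Nlrc5, 0.12 for Calr, -0.15 for Canx and 0.14 for Pdia3.

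With the leukocyte score as a covariate, the 6 genes stayed higher, where 6.77% of all tested genes were. Their log2 fold changes were then 2.22 for Nlrc5 (edgeR, adjusted p = 0.00330), 1.82 for Tap1 (0.000822), 1.54 for Tap2 (0.00116), 1.53 for Erap1 (0.000698), 1.28 for Tapbp (0.00164) and 1.16 for Tapbpl (0.00402). None of the chaperones passed in that fit, where 7.29% of all tested genes were lower: 2 of the 3 had an unadjusted p below 0.05 with edgeR, the only tool run with the covariate. The estimate was -0.34 for Calr (edgeR, adjusted p = 0.0586), -0.29 for Pdia3 (0.144) and -0.016 for Canx (0.956). The covariate fit rests mainly on iKO 1 and Ctrl 5, the libraries in which score and genotype part. A separate fit left out both those 2 libraries and the covariate, and all 9 calls held. Its log2 fold changes were 2.47 for Tap1, 2.45 for Nlrc5 and -0.41 for Canx, where 27% of all tested genes were higher and 20.3% lower. Without iKO 1 and Ctrl 5 the scores of the 2 groups lay apart, so that fit could not part score from genotype. All 9 calls also held without iKO 2 and iKO 3, the libraries with the most Xist, where 21.6% of all tested genes were higher and 18% lower.

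**Figure D3:**
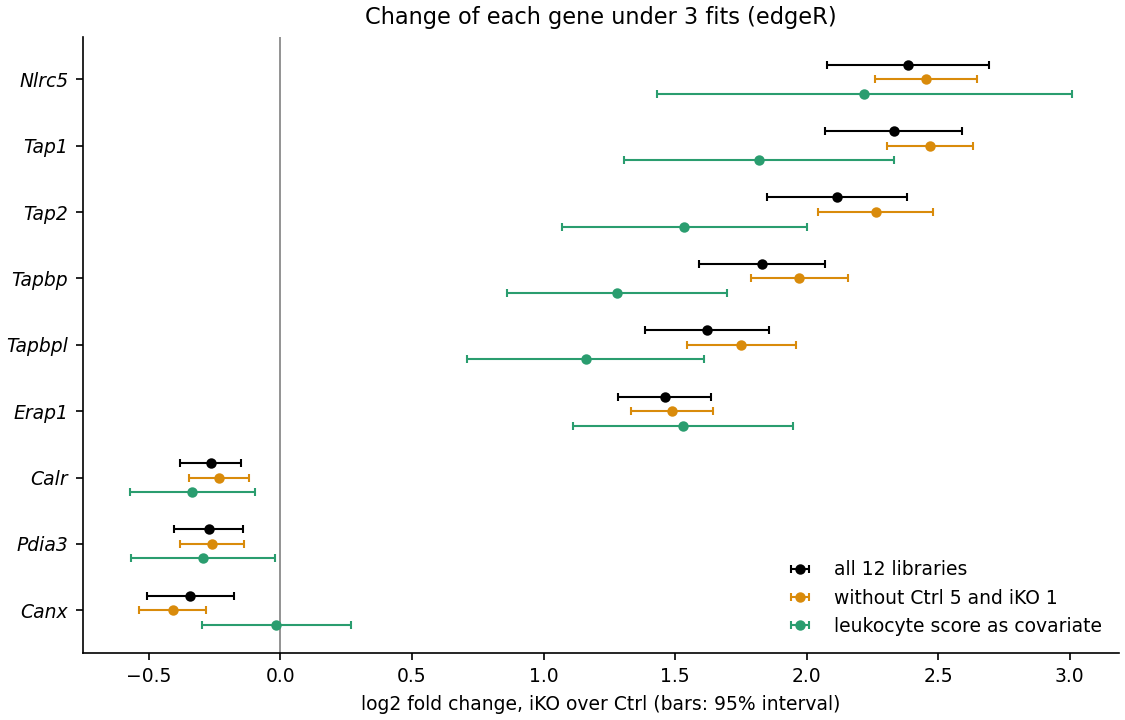
Log2 fold change of iKO over Ctrl with its 95% interval for each gene, from edgeR fits with all 12 libraries (black), without Ctrl 5 and iKO 1 (orange) and with the leukocyte score as a covariate (green). The 6 upper genes lie above 0 in each fit, and Canx moves from -0.34 in the fit with all libraries to -0.016 with the covariate.

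**Figure D4:**
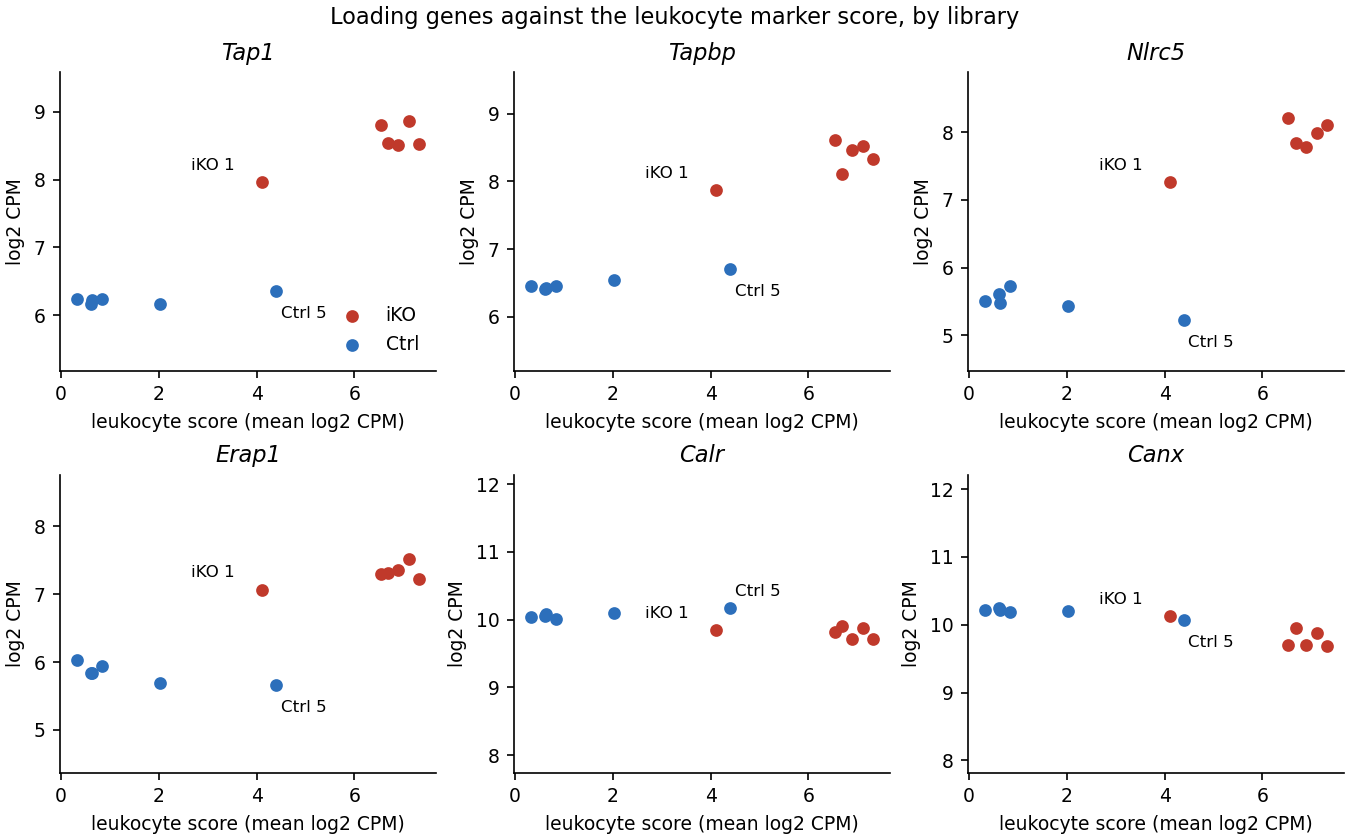
Log2 CPM of 6 of the genes (vertical axes, each spanning the same log2 range) against the leukocyte score (mean log2 CPM of the leukocyte markers) in iKO (red) and Ctrl (blue) libraries. At scores of 4.11 and 4.40, iKO 1 lies above Ctrl 5 for Tap1, Tapbp, Nlrc5 and Erap1, below it for Calr and close to it for Canx.

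The fall of the chaperones was compared with that of pigment cell transcripts, whose list had a median log2 fold change of -0.37. Set against the mean log2 CPM of the 8 melanocyte markers in the same library, a ratio added after the values were seen, Calr was at 0.19 ± 0.15 in iKO and 0.11 ± 0.06 in Ctrl, Canx at 0.23 ± 0.10 in iKO and 0.23 ± 0.06 in Ctrl, and Pdia3 at -0.16 ± 0.11 in iKO and -0.23 ± 0.09 in Ctrl (SD, n = 6 each). These differences of 0.077, -0.0074 and 0.070 did not pass (exact two-sided permutation test, adjusted p = 0.319, 0.875 and 0.295). On the same scale the other 6 genes rose by 1.80 for Erap1 to 2.71 for Nlrc5 (exact permutation test, adjusted p = 0.00325 for each). The mean log2 CPM of the melanocyte list was 9.62 in iKO and 9.96 in Ctrl, so this ratio moved all 9 differences upward by the same amount.

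Further genes of the class I pathway moved with the 6 that rose. All 9 genes of the class I chains rose, with a median change of 2.03 on the log2 scale, among them H2-K1, a classical heavy chain, by 2.03, H2-Q4, a non-classical one, by 1.89, and B2m, the shared light chain, by 1.41. Their sequences are similar, so reads of the heavy chain genes may be split between them. All 5 genes of the immunoproteasome and its activator rose, by a median of 1.35: the catalytic subunits Psmb8 by 2.63 and Psmb9 by 2.24, and Psme1, an activator subunit, by 1.05. Of 11 genes that carry the interferon signal 10 rose, by a median of 0.88 over the list, with Stat2 at 2.11 and Irf9 at 1.27. Of 8 DNA-binding partners of NLRC5 and related factors at class I promoters 1 rose, Rfx5 by 0.43, and 2 fell, Rfxap (-0.39) and Nfyb (-0.32), with a list median of -0.058. Of 7 other peptidases that act on class I peptides or similar substrates 2 rose, Lnpep, which trims peptides in endosomes, by 1.14 and Lap3 by 0.39, and 2 fell, Thop1 (-0.35) and Blmh (-0.33), with a list median of 0.079. These shares are to be read beside the 25% of all tested genes that rose and the 21.4% that fell: for the partners the share that fell, and for the peptidases the shares both ways, were close to them.

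Of 17 other folding genes of the endoplasmic reticulum 10 fell, 1 rose and 6 made no call, with a median log2 fold change of -0.20. Sdf2l1, a partner of the chaperone BiP, fell by 0.72, and the disulfide isomerases Pdia6 and Pdia4 fell by 0.53 and 0.49 on the log2 scale, while Ero1lb, an oxidase, rose by 0.40. Of 9 genes of the protein translocon and its associated TRAP complex 7 fell and 2 made no call, with a median of -0.34, among them Sec61g (-0.57), Sec61b (-0.52) and Ssr2 (-0.51). In the same fit 21.4% of all tested genes fell and 25% rose. When the fit also held the leukocyte score, 6 of the 9 class I chain genes, 4 of the 5 immunoproteasome genes, 5 of the 11 interferon signal genes and 1 of the 8 partners of NLRC5 were higher. In that fit 2 of the 17 folding genes, 1 of the 9 translocon genes, 1 of the 7 peptidases and 1 of the 8 partners were lower. Over all tested genes of that fit 6.77% were higher and 7.29% lower.

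**Figure D5:**
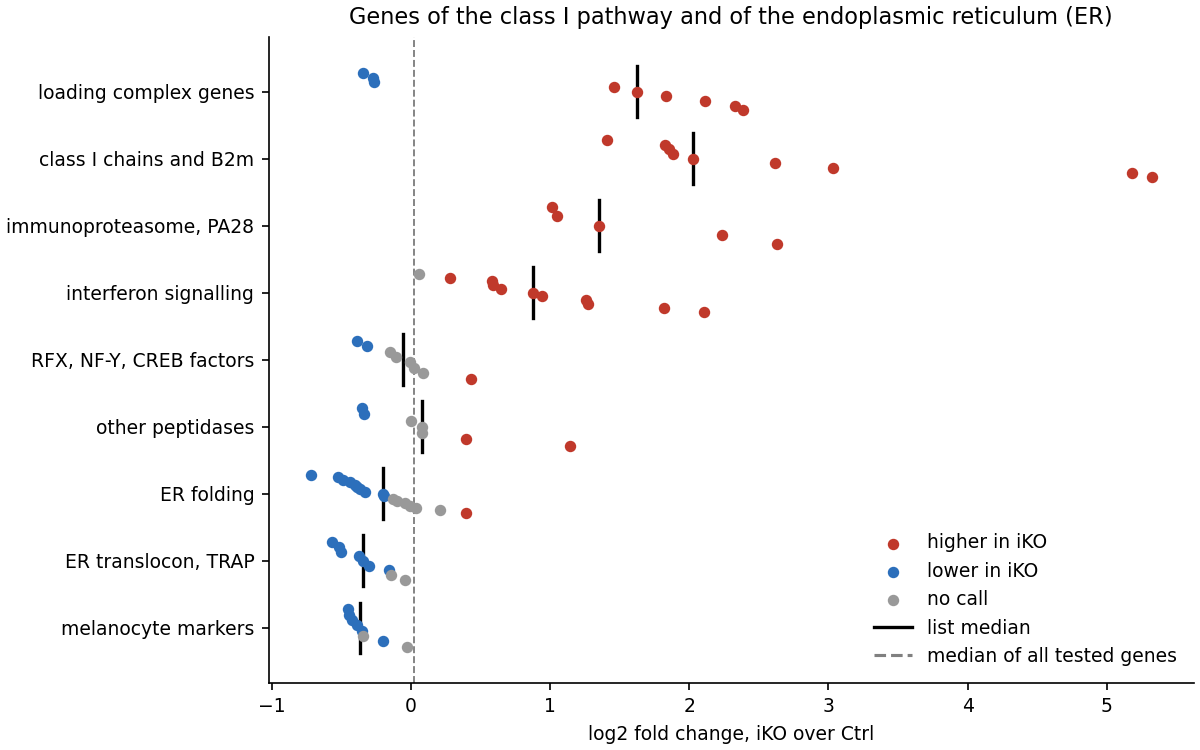
Log2 fold change (iKO over Ctrl) of every tested gene of 9 lists, coloured by call (red higher, blue lower, grey no call), with list medians in black and the median of all tested genes (0.023) as a dashed line. The loading complex genes form 2 groups, 6 among the values of the class I chains and immunoproteasome and 3 among those of the folding, translocon and melanocyte lists.

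Tap1, Tap2 and Tapbp lie in the MHC region of chromosome 17. Between the start of Tapbp and the end of Tap2, 21 protein-coding genes were tested, of which 10 rose, Tapbp, Tap1 and Tap2 among them, 4 fell and 7 made no call, where 25% of all tested genes rose and 21.4% fell. The stretch was bounded by genes that rose, so its share that rose is raised by that choice. Those next to Tap1 and Tap2, chosen by position, were Psmb9 and Psmb8, both of which rose. The direct neighbours of Tapbp did not follow it: Zbtb22 stood at 0.11 and Rgl2 at -0.072 on the log2 scale (edgeR, adjusted p = 0.155 and 0.334).

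The 12-library profiles most like those of 4 of the genes were sought among protein-coding genes other than these 9 with a mean of at least 1 CPM, by the root mean square distance of log2 CPM after centring each gene on its mean. Nearest to Tap1 were Gbp2, a guanylate-binding protein (distance 0.095), the chemokine gene Cxcl10 (0.15) and Dhx58, a regulator of RNA sensing (0.16). Nearest to Nlrc5 were Helz2 (0.17), Oas2, an oligoadenylate synthetase (0.18), and Parp14 (0.19), and among the 9 genes Tap1 lay slightly closer to Nlrc5, at 0.172, than Helz2 at 0.173. Nearest to Calr were Cct2, a subunit of a cytosolic chaperonin, Mmadhc and Pa2g4 (0.027 to 0.029), closer than Pdia3 at 0.050. Nearest to Canx were Tmem33, Gmps and Ccdc47 (0.044 to 0.052), the first and last of which encode proteins of the endoplasmic reticulum membrane.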

How the data were processed

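The deposited values were raw counts of reads for each Ensembl gene, whole numbers that the authors had not normalized, with gene lengths. The submitters' processing notes name the build mm10. Aligner, counter and strand setting: not given in the sources used here. The libraries were poly-A selected and unstranded, per the labels' protocols.

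The 6 iKO and 6 Ctrl libraries were compared with edgeR 4.0.16 in R 4.3.3 (robust quasi-likelihood test, TMM, minimum count 10, minimum total 15, group as the only term). P-values were adjusted by Benjamini-Hochberg across the 16164 tested genes, with 0.05 as the threshold. The SE is the log2 fold change over the square root of F. CPM are TMM-scaled, log2 CPM use a prior count of 2, and TPM were computed from the deposited lengths. Libraries of the same group differed by more than counting noise (lowest chi-square per degree of freedom 7.47). The test was checked on simulated counts. DESeq2 1.42.0 and limma 3.58.1 were alternatives.

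The genes, lists and rule for named genes were chosen with earlier results of these data known. Named list genes are the up to 3 with the smallest p in each direction; 1 of them is not reported here.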

Additional observations from a re-analysis of the deposited data

Results flagged for a closer look

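Canx in Ctrl 5 stood apart from its group: it was at 1074 CPM, against 1169 CPM in the nearest other Ctrl library, a gap of 0.667 of the group's range, where 0.625 is the limit for 6 libraries (Dixon's test). Chance alone sets apart about 1 group in 20, and 18 groups were looked at. Ctrl 5 was also the Ctrl library with the highest leukocyte score, 4.40; the part of this in the Canx value was not tested. Without Ctrl 5 and iKO 1 the log2 fold change of Canx was -0.41, against -0.34 with all libraries.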

How the results depend on the processing

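The 6 rises held in each of the 24 alternatives run, and the 3 falls in 22 of them. The log2 fold change of Tap1 stayed between 1.82 and 2.65, that of Nlrc5 between 2.22 and 2.71, and leaving out any 1 library kept Calr between -0.28 and -0.22, Canx between -0.41 and -0.31 and Pdia3 between -0.31 and -0.22. Adding the leukocyte score as a covariate left 1095 genes higher and 1179 lower, against 4037 and 3464 without it, and 16 of the pathway list genes were higher and 5 lower. In that fit 0 of the 9 genes were lower (2 at an unadjusted p below 0.05), with Calr at -0.34, Canx at -0.016 and Pdia3 at -0.29, Tmem33 at 0.019 and Pecam1 at -0.023; the cause was not tested. Relative to the melanocyte list, added after the data were seen, Calr was at 0.077, Canx at -0.0074 and Pdia3 at 0.070. Upper quartile scaling gave 3548 genes higher and 4308 lower, 45.2% of calls higher against 53.8%, and 4 partners of NLRC5 lower against 2. Differences near 0 changed sign: Tap1 minus Nlrc5 was 0.013 without Ctrl 5 and iKO 1 and 0.020 without Ctrl 5 (range -0.10 to 0.020 with any 1 library left out), and Calr minus Pdia3 was -0.0047 without iKO 2 and 3, -0.0058 without Ctrl 4, -0.0031 without iKO 3 and -0.0053 without iKO 6 (range -0.0058 to 0.031). A replicate block gave 3489 genes higher and 2984 lower and kept all 9 calls; deviations of same-numbered libraries correlated at -0.13 to 0.25, and the labels give no shared animal, so the numbers were not used as pairs.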
